A study of Mus musculus with 8 samples.

Results

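Antisense noncoding RNA genes, which are transcribed from the strand opposite another gene, were followed in mouse oligodendrocyte progenitors with and without the histone methyltransferase genes Ehmt1 and Ehmt2. Members were the genes whose biotype in the deposited gene table is exactly antisense and whose mean over the 8 libraries was at least 1 CPM (counts scaled to the library's column sum, in the usual CPM unit). The imprinted antisense genes Kcnq1ot1, Airn and Gnasas1 (also called Nespas) were left out. This gave 228 of the table's 24155 genes. The table holds 1350 antisense genes, of which 1119 lay under 1 CPM. The members were thus chosen by their mean level over all libraries, which is given as a description. Just under the line were Gm16278, Gm12359 and Gm10532 at 0.989, 0.991 and 0.994 CPM, and just over it D930007J09Rik, Ttc39aos1 and Gm26781 at 1.01 CPM each. All 228 passed the filter on low counts. CPM values of single libraries and groups below are scaled to TMM-adjusted library sizes instead.

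Antisense transcripts are made by RNA polymerase II from promoters inside, beside or downstream of another gene, often share a CpG-rich promoter region with it, and are mostly spliced, low in level and not translated. Some act on the neighbouring gene by bringing chromatin regulators to it or by the passage of polymerase through it, and for most no function is known. EHMT1 and EHMT2 (also called GLP and G9a) are partner enzymes that methylate histone H3 on lysine 9, a mark of repressed chromatin.

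The cKO group consisted of 4 cultures infected with Ad-RFP-iCre, an adenovirus that delivers red fluorescent protein and Cre recombinase to whichever cells it infects. The control group consisted of 4 cultures infected with Ad-RFP, the same kind of virus without Cre. Both groups came from male and female pups at postnatal day 7 that carry Ehmt1 fl/fl and Ehmt2 fl/fl alleles, so the controls were floxed but not recombined. Progenitors were taken by immunopanning, grown with PDGF-AA and bFGF, infected for 6 hours and collected at 72 hours, and oligo-dT captured RNA was sequenced. Libraries carry the replicate numbers 1, 3, 4 and 6, and each number names a batch with 1 cKO and 1 control culture. The labels do not say whether batches came from separate animals, so the spread between pairs may be partly technical.

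The targeted genes and the cell markers checked the labels. Ehmt2 had 51.7, 55.5, 64.5 and 62.0 CPM in the cKO libraries of replicates 1, 3, 4 and 6, against 154, 178, 196 and 181 CPM in the control libraries, and Ehmt1 fell to 36.1 to 45.7 CPM in cKO, against 88.8 to 100.2 CPM in control libraries. Progenitor markers such as Pdgfra, Olig1, Olig2 and Ptprz1 summed to 7007 to 9013 CPM over a list of 7 in cKO, against 7352 to 9761 CPM in control libraries, lower in cKO in each batch, and 1 rose (Lhfpl3) and 2 fell (Pdgfra and Ptprz1). Mature oligodendrocyte markers summed to 291 to 2590 CPM in cKO and 237 to 1614 CPM in control libraries. That sum was higher in cKO in each batch, and 4 of 6 tested markers rose. Astrocyte markers summed to 699 to 2043 CPM in cKO and 795 to 2278 CPM in control libraries, again lower in cKO in each batch, with 2 of 7 higher and 2 lower. Of the neuronal markers, 4 of 7 rose, with sums of 804 to 1322 CPM in cKO and 772 to 1322 CPM in control libraries. Microglia, endothelial and fibroblast lists summed to at most 5.25 CPM in any library, and only 2 of 7, 3 of 5 and 3 of 4 of their markers are in the table. The microglia sum was higher in cKO in each batch. P2ry12, the only microglia marker tested, rose (log2 fold change 0.77, edgeR adjusted p = 0.0424), and no endothelial or fibroblast marker passed. The part of these other cell types in the results was not tested. Totals ran from 43542700 to 65374500 counts per library, and 1 ribosomal RNA gene held 6.61% to 9.13% of the counts in cKO and 7.91% to 10.1% in control libraries, lower in cKO in each batch. Without that gene 20 members were called, as with it. Mitochondrial genes held 2.999% to 3.63% of the counts in cKO and 2.42% to 3.24% in control libraries, higher in cKO in each batch, and their part in the results was not tested.

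The sequences of the antisense genes that the results turn on come first. Gm3693, Gm9984 and Gm11872 were the members with the largest rise. Each lies inside a protein-coding gene, with every exon facing introns of that host. The first 150 bases of their first exons are shown in GENCODE M21 on GRCm38 (the mm10 assembly), plus strand, at chr12:81228284-81228433, chr17:67010485-67010634 and chr4:20343706-20343855. Capitals mark CG dinucleotides, of which these stretches hold 0, 3 and 1.
Gm3693: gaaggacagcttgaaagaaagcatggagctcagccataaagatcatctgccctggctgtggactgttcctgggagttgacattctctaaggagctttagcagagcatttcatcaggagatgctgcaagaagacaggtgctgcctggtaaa
Gm9984: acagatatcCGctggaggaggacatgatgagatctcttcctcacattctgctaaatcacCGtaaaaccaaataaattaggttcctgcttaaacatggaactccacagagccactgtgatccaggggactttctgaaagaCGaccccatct
Gm11872: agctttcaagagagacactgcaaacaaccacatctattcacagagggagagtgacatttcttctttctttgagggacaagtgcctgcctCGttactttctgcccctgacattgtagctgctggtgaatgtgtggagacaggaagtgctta

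D430036J16Rik, E030013I19Rik and Pcsk2os1 instead start within a protein-coding gene and run out past its 5′ end, so that the 5′ ends of the 2 genes overlap head to head, and each rose together with that gene. Their promoters and those of the genes opposite are shown from RefSeq on GRCm38.p6, 250 bases before and 50 bases after the RefSeq start. For D430036J16Rik and E030013I19Rik the RefSeq start lies downstream of the gene start in the deposited table. The windows of these 2 genes therefore lie wholly inside the gene as counted. D430036J16Rik lies on the plus strand at chr9:81631680-81631979 (the first of 2 starts listed) and faces Htr1b on the minus strand at chr9:81633783-81634082. E030013I19Rik lies on the plus strand at chr2:12300996-12301295 and faces Itga8 on the minus strand at chr2:12301895-12302194. Pcsk2os1 lies on the minus strand at chr2:143547788-143548087 and faces Pcsk2 on the plus strand at chr2:143545883-143546182. Capitals again mark CG dinucleotides.
D430036J16Rik: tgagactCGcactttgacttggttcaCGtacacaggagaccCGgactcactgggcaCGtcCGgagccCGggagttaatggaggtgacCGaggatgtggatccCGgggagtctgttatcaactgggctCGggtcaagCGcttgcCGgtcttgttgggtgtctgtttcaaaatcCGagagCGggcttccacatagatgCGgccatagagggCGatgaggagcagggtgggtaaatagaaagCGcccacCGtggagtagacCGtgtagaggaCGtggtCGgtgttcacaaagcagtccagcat
Htr1b: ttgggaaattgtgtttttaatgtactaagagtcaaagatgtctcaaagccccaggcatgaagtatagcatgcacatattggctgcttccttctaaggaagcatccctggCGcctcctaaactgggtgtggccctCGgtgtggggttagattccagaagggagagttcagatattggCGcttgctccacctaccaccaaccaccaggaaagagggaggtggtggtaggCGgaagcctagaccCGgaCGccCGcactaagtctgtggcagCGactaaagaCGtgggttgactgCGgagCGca
E030013I19Rik: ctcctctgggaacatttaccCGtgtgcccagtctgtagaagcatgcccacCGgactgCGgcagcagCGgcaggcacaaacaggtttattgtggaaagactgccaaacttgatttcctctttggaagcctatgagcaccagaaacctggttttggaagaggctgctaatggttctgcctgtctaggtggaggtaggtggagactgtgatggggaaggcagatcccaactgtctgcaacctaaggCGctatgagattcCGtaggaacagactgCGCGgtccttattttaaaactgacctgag
Itga8: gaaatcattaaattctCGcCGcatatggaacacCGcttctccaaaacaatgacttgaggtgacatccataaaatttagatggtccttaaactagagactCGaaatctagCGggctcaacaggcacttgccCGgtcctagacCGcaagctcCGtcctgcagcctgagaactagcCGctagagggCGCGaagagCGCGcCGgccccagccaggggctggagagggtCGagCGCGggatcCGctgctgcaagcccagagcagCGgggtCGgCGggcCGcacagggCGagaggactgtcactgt
Pcsk2os1: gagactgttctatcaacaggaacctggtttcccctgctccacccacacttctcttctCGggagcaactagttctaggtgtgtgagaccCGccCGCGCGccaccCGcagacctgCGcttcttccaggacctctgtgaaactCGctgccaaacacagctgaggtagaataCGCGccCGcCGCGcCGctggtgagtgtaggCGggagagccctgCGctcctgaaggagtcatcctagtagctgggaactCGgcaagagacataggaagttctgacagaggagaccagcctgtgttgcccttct
Pcsk2: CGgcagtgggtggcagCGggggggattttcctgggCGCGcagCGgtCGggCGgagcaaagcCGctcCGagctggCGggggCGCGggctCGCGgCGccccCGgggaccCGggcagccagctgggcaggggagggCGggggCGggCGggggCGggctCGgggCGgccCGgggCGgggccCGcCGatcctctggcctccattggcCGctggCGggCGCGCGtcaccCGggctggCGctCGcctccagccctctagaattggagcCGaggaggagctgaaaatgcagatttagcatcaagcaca

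The windows of a pair do not overlap, and they differ in base composition. The promoter of Pcsk2 holds 36 CG dinucleotides and that of Itga8 holds 23, while the Htr1b window holds 11 and the E030013I19Rik window 8. D430036J16Rik and Pcsk2os1 lie between them with 20 and 17. Over the 104 members with a promoter in the RefSeq table the median was 20, against a median of 7 over all 32851 listed promoters. Here and in the motif shares below, each member entered with its first listed promoter. The background instead holds every listed start and was not limited to expressed genes. In human cells G9a and GLP were found in a complex with E2F6 and the E-box binding proteins MGA and MAX, so an E2F6-type motif (GCGGGAA) and an E-box (CACGTG) were searched on both strands. Neither motif contains the other. The E2F6-type motif was found in 7.69% of member promoters, against 4.6% of all promoters, and the E-box in 11.5% of member promoters, against 7.15% of all. None of the 6 windows shown held either motif. Whether the CG content of the members' promoters accounts for these shares was not tested.

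The members were low in level. Their median was 1.99 CPM, with 116 between 1 and 2 CPM, 76 between 2 and 5, 33 between 5 and 20 and 3 at 20 CPM or more. Together they took 858 to 973 CPM of each cKO library and 870.1 to 971 CPM of each control library. Brip1os and 4933431E20Rik stood highest by CPM, which does not account for transcript length. On TMM-adjusted sizes 211 members averaged at least 1 CPM in both groups, 7 in cKO alone and 9 in control alone. Gm3693, Gm9984, Gm11872 and Gm45447 are among the 7, so they met the level rule only through the cKO group, and the rule itself favours genes that differ in this way. Most symbols are names of gene models (129) or Riken clones (70), and 24 are named for the locus they face.

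By position, 220 members overlap a gene on the other strand. In 73 the 5′ ends overlap (head to head), in 62 the 3′ ends overlap (tail to tail), 72 lie inside the gene opposite and 13 contain it. The gene sharing the most bases was taken as the partner, which gave 217 distinct partners, and 211 members had a protein-coding partner. Exon lengths were known for 220 members, of whose exon bases a median of 13.8% face an exon on the other strand.

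No source used here states if the strand entered the counting, and without strand the reads of a gene and of its antisense gene cannot be told apart. An indirect measure was the level of antisense genes that lie almost wholly opposite exons of a well expressed gene. It cannot settle the use of strand, because how reads of overlapping genes were assigned is not given. There were 14 antisense genes, members or not, with at least 80% of their exon bases so placed and a partner of at least 10 CPM per kb of exon. Their level per kb was a median of 0.542% of that of the partner, with a range of 0.0676% to 37.7%. Gm42802, which lies wholly opposite exons of the progenitor receptor gene Pdgfra, had 0.0682 CPM per kb, against 87.1 CPM per kb for Pdgfra. Only 4 of the 14 are members, namely Gm20463, Gm27232, Gm43118 and Gm44709, at 21.96%, 37.7%, 7.02% and 11.7% of the level per kb of Rnf5, Rfx7, Pitpnb and Supt5. For these 4 the count of the member may include reads of the partner.

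The main comparison asked how the members differ between cKO and control cultures of the same batch. Of the 228 members, 20 had an adjusted p under 0.05 with the batch as a block in the quasi-likelihood test of edgeR, or 8.77%, against 20.5% of all 18102 genes tested. The members split into 12 higher (5.26%, against 10% of all genes) and 8 lower (3.51%, against 10.4%). Of the 12, 4 met the level rule only through the cKO group, and among members of at least 2 CPM 7 rose. The median log2 fold change was -0.02, and the same median over all genes was -0.01. The middle of the members lay between -0.17 and 0.09 (quartiles), and 214 changed by less than 0.5 on the log2 scale. Higher in all 4 pairs were 25 members (11%, against 19.5% of all genes), and lower in all 4 pairs were 36 (15.8%, against 21.3%). The CPM of the cKO and control libraries did not overlap for 3 members, Gm9984 and Sp3os higher and 4930513N10Rik lower, beside 3.68% of all genes tested. Without the batch block none of the 228 passed in edgeR, 8 lay under an unadjusted p of 0.05, and 0.0166% of all genes passed. The 20 kept their direction in that fit.

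**Figure D1:**
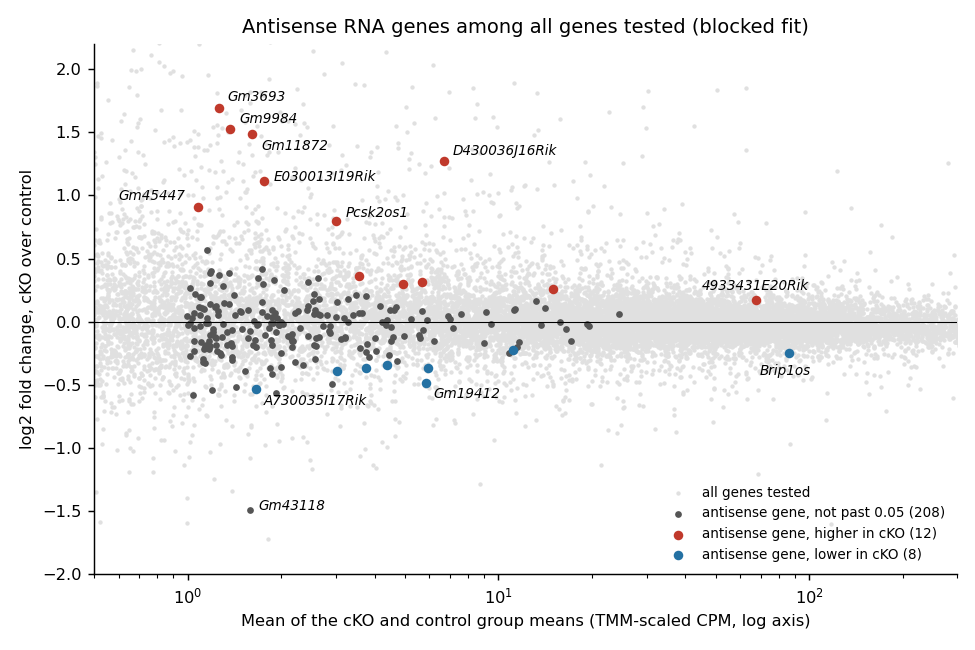
Mean level (x axis, CPM on a log scale) and log2 fold change of cKO over control (y axis) of the 228 antisense genes, with all genes tested in light grey as far as they fall within the axes (y from -2 to 2.2). Red and blue points are the 12 members higher and the 8 lower at an adjusted p of 0.05. The 3 highest red points are Gm3693, Gm9984 and Gm11872 at log2 fold changes of 1.49 to 1.69, while most members lie near 0.

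The share past the threshold was set beside that of other genes of the same level. Between 1 and 2 CPM, 5.17% of members passed, against 22.7% of protein-coding and 11.4% of lincRNA genes. Between 2 and 5 CPM the shares were 7.89% of members, 23.5% of protein-coding and 22% of lincRNA genes. Between 5 and 20 CPM they were 18.2% of 33 members, 21.5% of protein-coding and 20% of lincRNA genes. Of the 3 members between 20 and 100 CPM 2 passed (66.7%), against 26.6% of protein-coding genes. Median standard errors of the log2 fold change were close within a level, 0.18 for members and 0.18 for protein-coding genes between 1 and 2 CPM. Among other noncoding biotypes at 1 CPM or more, 28 of 203 lincRNA genes were higher and 13 lower, 17 and 6 of 150 processed transcripts, 1 and 2 of 36 bidirectional promoter RNAs and 2 and 6 of 169 TEC genes (transcripts yet to be experimentally verified). The difference between biotypes was not tested.

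**Figure D2:**
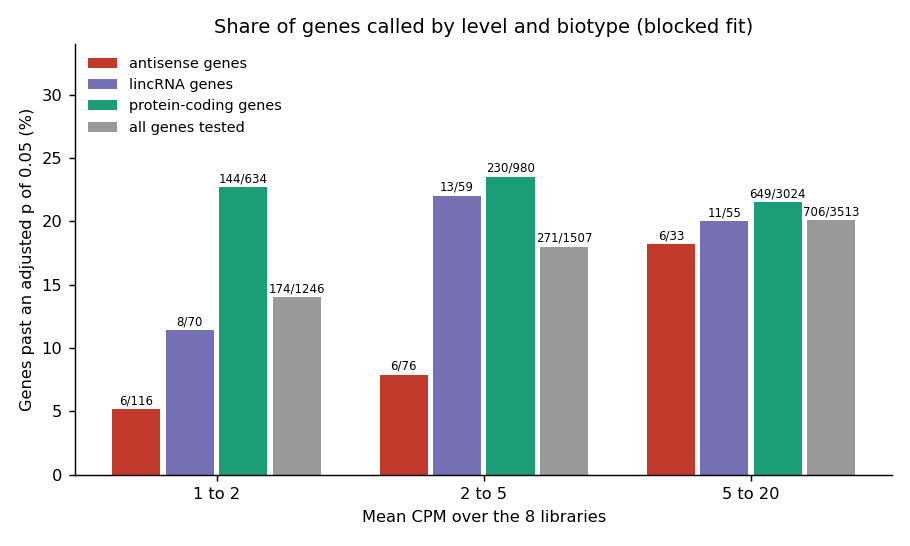
Share of genes past an adjusted p of 0.05 in the blocked edgeR fit (y axis, %), by mean CPM (x axis) and biotype, with the genes past the threshold and tested printed over each bar. Antisense genes had the lowest bar in each of the 3 level bands drawn, from 5.17% at 1 to 2 CPM to 18.2% at 5 to 20 CPM.

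Gm3693, Gm9984 and Gm11872 were higher in cKO libraries, while their host genes did not pass the test. Their control means lay under 1 CPM, at 0.596, 0.717 and 0.855 CPM, so the cKO libraries brought them past the level rule. Gm3693 (chromosome 12, 81228284 to 81243258, plus strand) lies inside Slc8a3, which encodes a sodium-calcium exchanger of excitable cells. It had 2.64, 3.13, 0.850 and 1.07 CPM in the cKO libraries, against 1.06, 0.723, 0.206 and 0.398 CPM in the control libraries of replicates 1, 3, 4 and 6. Each cKO library lay above the control library of its batch, and the groups overlapped because replicates 1 and 3 ran above 4 and 6 in both. The log2 fold change was 1.69 ± 0.20 (SE), with an edgeR adjusted p of 3.86e-04. Slc8a3 had 18.02, 29.6, 13.3 and 23.2 CPM in the cKO libraries, against 17.7, 30.2, 17.9 and 25.3 CPM in the control libraries, a log2 fold change of -0.13 ± 0.07 with an adjusted p of 0.212 in edgeR. The difference between gene and host in log2 fold change was 1.78 ± 0.23, with a limma adjusted p of 6.14e-05.

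Gm9984 (chromosome 17, 67010485 to 67019394, plus strand) lies inside Ptprm, which encodes a receptor tyrosine phosphatase that binds its like on other cells. It had 1.67, 1.496, 2.06 and 2.89 CPM in the cKO libraries, against 0.647, 0.326, 0.761 and 1.14 CPM in the control libraries. All 4 cKO libraries lay above all 4 control libraries. Its log2 fold change came to 1.53 ± 0.18 (SE, edgeR adjusted p = 3.87e-04). Ptprm had 17.6, 9.52, 24.1 and 17.1 CPM in the cKO libraries, against 20.0, 10.3, 25.2 and 19.9 CPM in the control libraries, so its groups overlapped, and its log2 fold change was -0.15 ± 0.05 (edgeR adjusted p = 0.0708). Gm9984 and Ptprm differed by 1.68 ± 0.20 in log2 fold change (limma adjusted p = 4.70e-05).

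Gm11872 (chromosome 4, 20343706 to 20347818, plus strand) lies inside Nkain3, which encodes a membrane protein that interacts with the sodium pump. It had 2.73, 3.64, 1.13 and 2.02 CPM in the cKO libraries, against 1.12, 1.30, 0.412 and 0.587 CPM in the control libraries. The cKO library was the higher one in all 4 batches, and the lowest cKO library, of replicate 4, lay within the range of the controls. The log2 fold change was 1.49 ± 0.16 (SE, edgeR adjusted p = 1.98e-04). Nkain3 averaged 19.1 ± 3.32 CPM in cKO and 16.99 ± 5.01 CPM in control libraries (SD, n = 4 each). Within each batch Nkain3 was higher in cKO. Its log2 fold change was 0.19 ± 0.08 (edgeR adjusted p = 0.102), and Gm11872 differed from it by 1.25 ± 0.18 (limma adjusted p = 2.49e-04). No other gene shared a stretch of at least 100 bases at 95% identity with any of these 3 transcripts. All 3 passed the edgeR test with each batch left out in turn.

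**Figure D3:**
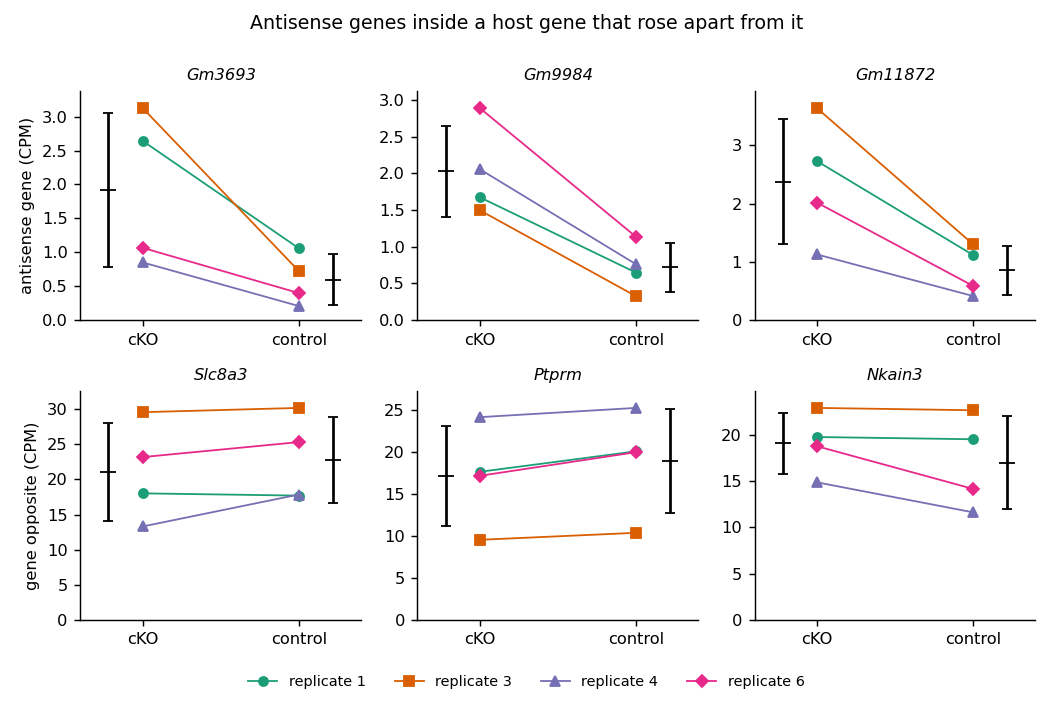
CPM by library (y axes) of 3 antisense genes (top) and of the host gene each lies in (bottom), with cKO on the left and control on the right of each panel. Points of 1 batch are joined, and bars give mean ± SD (n = 4 per group). All top lines run down towards control. Of the host genes, none of which passed the test, Ptprm was lower and Nkain3 higher in cKO in each batch. Slc8a3 differed most in replicate 4, at 13.3 CPM in cKO and 17.9 CPM in control.

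The 4 members that rose together with the gene opposite were all head to head with it. D430036J16Rik (chromosome 9, 81631551 to 81645156, plus strand) faces Htr1b, which encodes the serotonin receptor 1B. It had 14.7, 17.5, 3.52 and 1.001 CPM in the cKO libraries, against 8.63, 6.91, 0.761 and 0.398 CPM in the control libraries. Batches 1 and 3 ran far above 4 and 6 in both groups, so the groups overlapped while every cKO library exceeded its own control. This gave a log2 fold change of 1.27 ± 0.20 (SE, edgeR adjusted p = 0.00659). Htr1b had 9.14, 10.7, 3.30 and 1.28 CPM in the cKO libraries, against 7.53, 8.36, 2.08 and 0.511 CPM in the control libraries, again with batches 1 and 3 above 4 and 6. Htr1b rose by 0.51 ± 0.13 on the log2 scale (edgeR adjusted p = 0.0236). The gap of 0.74 ± 0.25 between the 2 genes did not pass (limma adjusted p = 0.341), though it did without replicate 1, 4 or 6 (0.00121, 0.00752 and 0.0203) and not without replicate 3 (0.461). Exons on the other strand face 38.1% of the exon bases of D430036J16Rik, so its count may share reads with that of Htr1b.

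E030013I19Rik (chromosome 2, 12300946 to 12312315, plus strand) faces Itga8, which encodes the integrin alpha 8 chain. It had 3.63, 5.90, 0.119 and 0.0807 CPM in the cKO libraries, against 2.41, 1.92, 0.0634 and 0.0189 CPM in the control libraries. Replicates 4 and 6 were near 0 in both groups, so its level rests on replicates 1 and 3. The log2 fold change was 1.11 ± 0.24 (SE, edgeR adjusted p = 0.00846), and with replicate 1 or 3 left out the gene fell below the filter and was not tested. Itga8 had 156, 174, 13.0 and 13.3 CPM in the cKO libraries, against 114, 98.3, 6.49 and 6.17 CPM in the control libraries, again with replicates 1 and 3 far above 4 and 6. Itga8 rose by 0.78 ± 0.11 on the log2 scale (edgeR adjusted p = 0.00702).

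Pcsk2os1 (chromosome 2, 143535476 to 143547837, minus strand) faces Pcsk2, which encodes a convertase that processes prohormones and neuropeptides. It had 2.59, 3.998, 4.35 and 4.15 CPM in the cKO libraries, against 1.10, 1.63, 3.14 and 3.12 CPM in the control libraries. Each cKO library exceeded its own control, with overlap between the groups. A log2 fold change of 0.80 ± 0.17 resulted (SE, edgeR adjusted p = 0.00980). Pcsk2 had 7.14, 16.95, 70.2 and 57.0 CPM in the cKO libraries, against 5.45, 12.03, 36.0 and 41.3 CPM in the control libraries, and there replicates 4 and 6 were the high ones. Pcsk2 rose by 0.61 ± 0.10 on the log2 scale (edgeR adjusted p = 0.00658). Only 5.84% of the exon bases of Pcsk2os1 face exons on the other strand, and 9.87% of those of E030013I19Rik.

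4933431E20Rik (chromosome 3, 107888850 to 107896213, minus strand), the second highest member by CPM, faces Gstm5, which encodes a glutathione S-transferase. It averaged 71.2 ± 16.8 CPM in cKO and 63.5 ± 15.8 CPM in control libraries (SD, n = 4 each). The rise was small, with a log2 fold change of 0.17 ± 0.04 (SE, edgeR adjusted p = 0.00781), higher in 4 of 4 pairs. Gstm5 had 62.7, 69.2, 75.1 and 74.6 CPM in the cKO libraries, against 50.2, 50.6, 59.4 and 65.3 CPM in the control libraries. Its cKO and control libraries overlapped at 62.7 and 65.3 CPM, and its log2 fold change was 0.32 ± 0.04 (edgeR adjusted p = 6.29e-04). Transcripts of 4933431E20Rik share stretches of at least 100 bases at 95% identity with 4 genes other than its partner, so part of its count may belong to them.

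**Figure D4:**
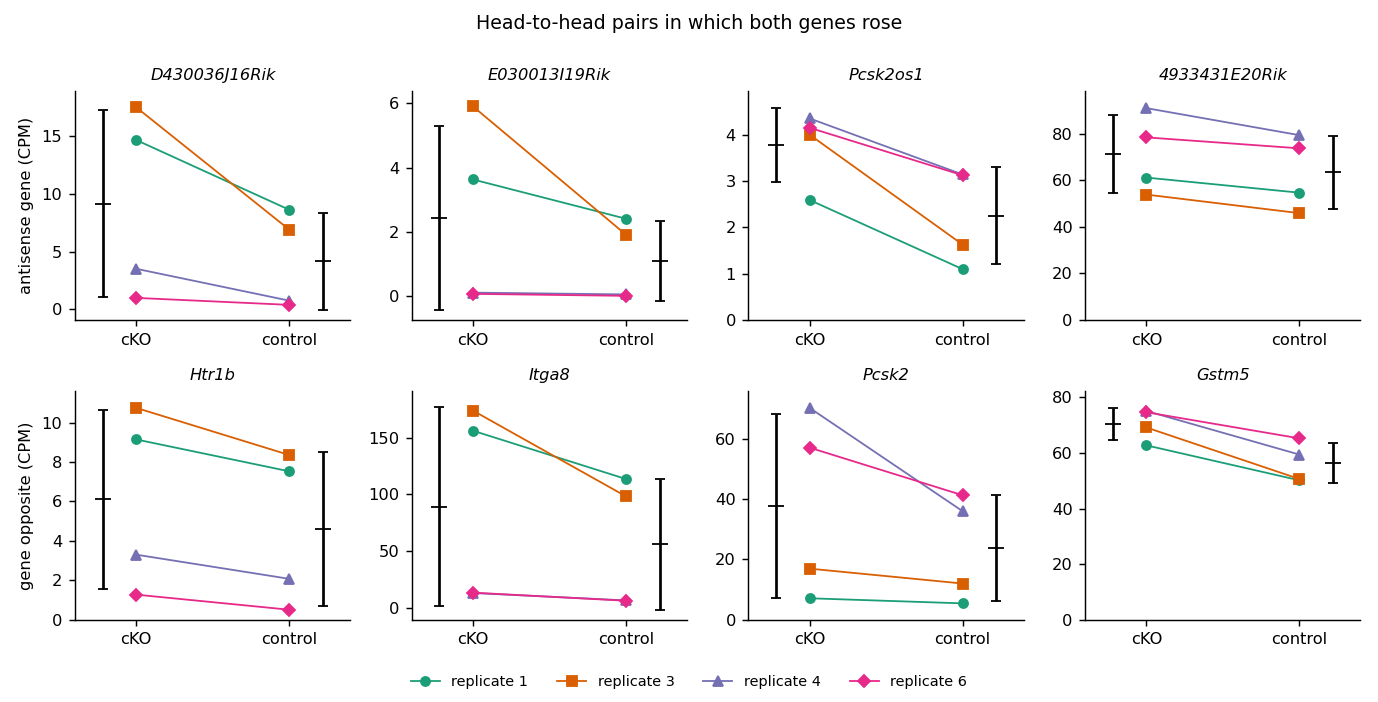
CPM by library (y axes) of 4 antisense genes (top) and of the genes they face head to head (bottom), with cKO on the left and control on the right of each panel. Points of 1 batch are joined, and bars give mean ± SD (n = 4 per group). All lines run down towards control, and for E030013I19Rik the cKO libraries alone range from 0.0807 to 5.90 CPM between batches.

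The other members that rose did so by less or had no partner. Gm45447, which overlaps no gene on the other strand, had 1.39, 1.68, 0.910 and 1.66 CPM in the cKO libraries, against 0.765, 0.579, 0.539 and 1.14 CPM in the control libraries. Its control mean lay under 1 CPM (0.755 CPM), so it too met the level rule only through the cKO group. Its lowest cKO library lay among the controls, and its log2 fold change was 0.91 ± 0.20 (SE, edgeR adjusted p = 0.0111; 0.0539 without replicate 3). Sp3os, head to head with the transcription factor gene Sp3, had 3.91, 3.89, 3.70 and 4.57 CPM in the cKO libraries, against 3.196, 3.201, 2.82 and 3.29 CPM in the control libraries. All cKO libraries lay above all controls, with a log2 fold change of 0.36 ± 0.10 (edgeR adjusted p = 0.0290), while Sp3 had a log2 fold change of 0.06 ± 0.03 (edgeR adjusted p = 0.221). The difference between Sp3os and Sp3 did not pass (limma adjusted p = 0.258). B230334C09Rik, tail to tail with the leucine-rich repeat gene Lrrc40, averaged 16.3 ± 2.46 CPM in cKO and 13.7 ± 1.97 CPM in control libraries (SD, n = 4 each), a log2 fold change of 0.26 ± 0.05 (edgeR adjusted p = 0.00912). Gm45767, inside the myelin gene Pllp (plasmolipin), and Gm4876, which contains the LIM protein gene Tes, had log2 fold changes of 0.31 ± 0.09 and 0.30 ± 0.09 (edgeR adjusted p = 0.0315 and 0.0420). Sp3os and Gm4876 missed the threshold whichever batch was left out (adjusted p 0.0682 to 0.0905 and 0.0639 to 0.200), and Gm45767 without replicate 3 or 4 (0.110 and 0.137).

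Among the 8 members that fell, Brip1os carried the highest level of all members. Brip1os (chromosome 11, 86201370 to 86304443, plus strand) is named for the helicase gene Brip1 and contains Ints2, which encodes a subunit of the Integrator complex. It had 100.5, 79.0, 70.6 and 64.0 CPM in the cKO libraries, against 121, 96.1, 86.2 and 71.3 CPM in the control libraries. Every cKO library lay below the control of its batch, and the batches spread more widely than the groups. Its fall was -0.25 ± 0.03 on the log2 scale (SE, edgeR adjusted p = 8.37e-04). Ints2 had a log2 fold change of -0.04 ± 0.05 (edgeR adjusted p = 0.583), and the difference of -0.20 ± 0.05 from Ints2 did not pass (limma adjusted p = 0.0912), though it did without replicate 1 or 6 (0.00422 and 0.0203). Brip1os transcripts share stretches of at least 100 bases at 95% identity with 35 other genes, so its count is uncertain.

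Gm19412 and Gm10561 fell together with the gene opposite. Gm19412 lies inside Tapbp, which encodes tapasin of the MHC class I loading complex, and had 5.73, 2.19, 4.55 and 7.07 CPM in the cKO libraries, against 7.23, 3.201, 7.26 and 9.50 CPM in the control libraries. It was lower in cKO in every batch, with overlapping groups and a log2 fold change of -0.49 ± 0.09 (SE, edgeR adjusted p = 0.00422). Tapbp had a log2 fold change of -0.24 ± 0.05 (edgeR adjusted p = 0.00572), and 89.7% of the exon bases of Gm19412 face exons on the other strand, so the 2 counts may share reads. Gm10561, head to head with the raft protein gene Rftn2, had 2.77, 1.90, 2.37 and 3.45 CPM in the cKO libraries, against 3.22, 2.93, 3.36 and 4.15 CPM in the control libraries. Its log2 fold change was -0.39 ± 0.12 (SE, edgeR adjusted p = 0.0375), and that of Rftn2 was -0.57 ± 0.06 (edgeR adjusted p = 7.72e-04). Rftn2 averaged 43.8 ± 9.18 CPM in cKO and 66.0 ± 19.2 CPM in control libraries (SD, n = 4 each). Gm10561 missed the threshold whichever batch was left out (adjusted p 0.0535 to 0.152).

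The remaining members that fell were spread over the position classes. Snhg16, a host gene of small nucleolar RNAs, lies tail to tail with the sialyltransferase gene St6galnac2 and averaged 5.17 ± 0.670 CPM in cKO and 6.68 ± 1.10 CPM in control libraries (SD, n = 4 each), a log2 fold change of -0.37 ± 0.09 (edgeR adjusted p = 0.0148). 4930513N10Rik, head to head with Cnot1, the scaffold gene of a deadenylase complex, had 3.63, 3.46, 3.04 and 2.95 CPM in the cKO libraries, against 4.27, 4.72, 4.01 and 3.84 CPM in the control libraries. All 4 cKO libraries lay below all 4 controls, with a log2 fold change of -0.36 ± 0.10 (edgeR adjusted p = 0.0257). A730035I17Rik inside the regulator gene Prdm8 and Gm15612 inside Podxl2, which encodes endoglycan, had log2 fold changes of -0.53 ± 0.15 and -0.35 ± 0.10 (edgeR adjusted p = 0.0269 and 0.0284). BC037039 lies in the gamma protocadherin cluster of adhesion genes on chromosome 18 opposite 20 annotated genes, and had a log2 fold change of -0.22 ± 0.07 (edgeR adjusted p = 0.0480). Several of them span it whole, and of these Pcdhga11, the partner by level, also fell (-0.13 ± 0.04, edgeR adjusted p = 0.0325), and 70.7% of the exon bases of BC037039 face exons on the other strand. Genes of this cluster share their 3′ exons, so counts of single cluster genes are uncertain. Whichever batch was left out, 4930513N10Rik, A730035I17Rik and Gm15612 missed the threshold (adjusted p 0.0526 to 0.105, 0.0574 to 0.0910 and 0.0602 to 0.155). Snhg16 missed it without replicate 3 or 4 (0.0785 and 0.0575), and BC037039 without replicate 1, 3 or 6 (0.122 to 0.163).

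DESeq2 with the same block called 12 of the 20 and no other member. It missed Sp3os, Gm45767, Gm4876, A730035I17Rik, Gm10561, 4930513N10Rik, Gm15612 and BC037039, with adjusted p between 0.0639 and 0.137. In all 11 settings with the block, 9 members passed, namely Gm3693, Gm9984, Gm11872, D430036J16Rik, Pcsk2os1, B230334C09Rik, 4933431E20Rik, Gm19412 and Brip1os. Of these, Gm3693, Gm9984 and Gm11872 met the level rule only through the cKO group.

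Most of the partners that passed the test fell. Of 208 distinct partners tested, 59 passed (28.4%, against 20.5% of all genes), 14 higher and 45 lower, with a median log2 fold change of -0.04. Partners had a median level of 50.9 CPM, and among protein-coding genes of at least 1 CPM 25.8% passed, 11.4% higher and 14.4% lower. Between 100 and 500 CPM, 0 partners rose and 21 of 54 fell, where 152 of 2006 protein-coding genes rose and 486 fell. Between 20 and 100 CPM 7 of 95 partners rose and 18 fell, where 566 of 5538 protein-coding genes rose and 905 fell. Between 5 and 20 CPM 4 of 27 partners rose and 3 fell, beside 386 and 263 of 3024 protein-coding genes. Between 2 and 5 CPM 1 of 9 partners rose and 1 fell, beside 172 and 58 of 980. Between 1 and 2 CPM 2 of 10 partners rose and 1 fell, beside 117 and 27 of 634. Whether partners differ from other genes of their level was not tested.

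Among 211 members with a tested partner, 130 had a log2 fold change on the same side of 0 as the partner's. Both genes passed in 7 pairs, always in the same direction, 4 higher and 3 lower, and in 0 pairs did the 2 genes pass in opposite directions. Of all distinct partners tested 28.4% passed, 6.73% higher and 21.6% lower. Whether members and partners passed together more often than these shares give was not tested. Gm19412 and BC037039, which fell with the partner, may share reads with it, since most of their exon bases face exons. The member alone rose in 7 pairs and fell in 5. The partner alone rose in 10 pairs and fell in 43. Across the 211 pairs the log2 fold changes of member and partner had a Spearman rho of 0.37 and a Pearson r of 0.26, as a description over genes that share libraries and, for some, reads. The rho was 0.46 in 72 head-to-head pairs, 0.36 in 61 tail-to-tail pairs and 0.28 in 70 pairs with the member inside the partner. By position class 5 of 73 head-to-head members rose and 2 fell, 4 and 4 of 72 inside the partner, 1 and 1 of 62 tail to tail and 1 and 1 of 13 containing the partner. Over all genes tested 10% rose and 10.4% fell. Among the 4 that rose inside the partner, Gm3693, Gm9984 and Gm11872 met the level rule only through the cKO group.

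**Figure D5:**
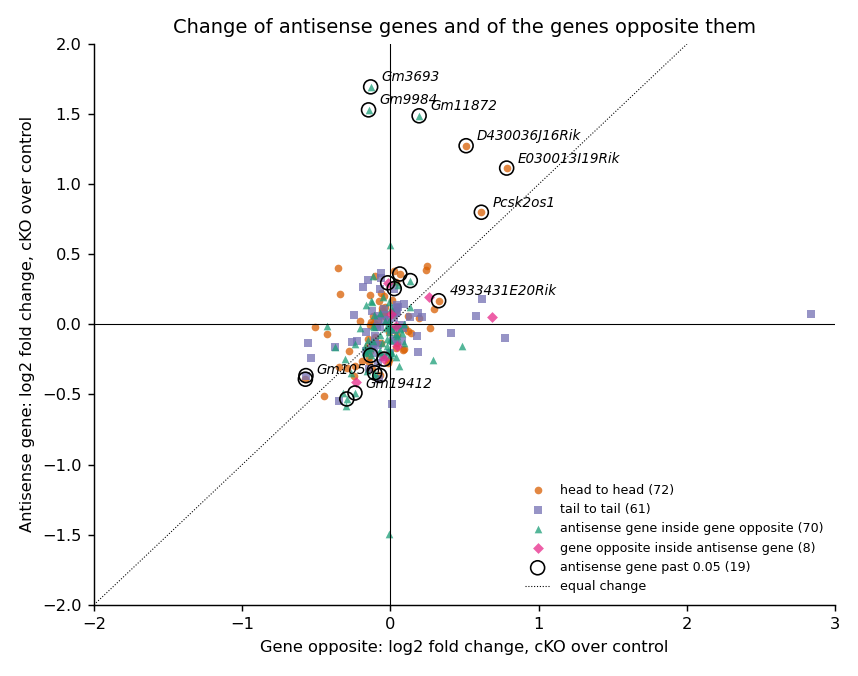
Log2 fold change of cKO over control of 211 antisense genes (y axis) and of the gene opposite (x axis), coloured by position, with circles around the 19 antisense genes past an adjusted p of 0.05. Gm3693, Gm9984 and Gm11872 lie near 0 on the x axis at 1.49 to 1.69 on the y axis, while D430036J16Rik, E030013I19Rik and Pcsk2os1 lie high on both.

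Members that passed were few in every class of exon overlap. Of 36 members with no exon base facing an exon, 4 rose and 0 fell, and of 27 members with over 50% of exon bases so placed, 0 rose and 3 fell. Between them, 4 of 51 members with up to 10% rose and 1 fell, and 4 of 106 members with 10% to 50% rose and 3 fell. Of all genes tested 10% rose and 10.4% fell. The 4 that rose with no exon base facing an exon were Gm3693, Gm9984, Gm11872 and Gm45447. These met the level rule only through the cKO group, so that count rests on the choice of members. The difference between these classes was not tested.

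A direct test of antisense gene against partner was made on the 604 antisense genes of any level with a tested partner, of which 7 passed (1.16%). Members made up 5 of them, and among these Gm3693, Gm9984 and Gm11872 met the level rule only through the cKO group. Beside Gm3693, Gm9984 and Gm11872, E130307A14Rik did not follow its partner Traf3ip2, which encodes an adaptor of interleukin-17 signalling. E130307A14Rik had 19.6, 27.2, 26 and 27.2 CPM in the cKO libraries, against 19.1, 26.7, 23.2 and 27.2 CPM in the control libraries, with almost equal pairs and a log2 fold change of 0.06 ± 0.05 (edgeR adjusted p = 0.424). Traf3ip2 had 7.61, 7.06, 3.80 and 5.17 CPM in the cKO libraries, against 4.10, 5.50, 2.57 and 3.69 CPM in the control libraries, higher in 4 of 4 pairs, with a log2 fold change of 0.58 ± 0.11 (edgeR adjusted p = 0.00435). The 2 differed by -0.51 ± 0.08 (limma adjusted p = 9.29e-04). A030001D20Rik differed from the Ras-interacting gene Rasip1 by -0.61 ± 0.10 (limma adjusted p = 9.29e-04), though neither gene passed on its own. Rasip1 stood at 0.682 ± 0.195 CPM in cKO and 0.486 ± 0.131 CPM in control libraries (SD, n = 4 each). Without the block the only member to pass was Gm9984, and without replicate 3 Gm11872 and A030001D20Rik no longer passed (limma adjusted p = 0.0529 and 0.0885).

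Some members did not pass the test where the gene opposite rose or fell, and the 4 examples here were chosen after their values were seen. Gm17690, tail to tail with the myotubularin-related gene Mtmr11, averaged 3.49 ± 0.639 CPM in cKO and 3.099 ± 0.718 CPM in control libraries (SD, n = 4 each; edgeR adjusted p = 0.408), while Mtmr11 had a log2 fold change of 0.62 ± 0.07 (edgeR adjusted p = 2.13e-04). Gm10602, tail to tail with Folr2, averaged 1.58 ± 0.932 CPM in cKO and 1.40 ± 0.331 CPM in control libraries (SD, n = 4 each; edgeR adjusted p = 0.882). Folr2, a folate receptor gene expressed by macrophages, had 0.264, 0.424, 5.34 and 1.74 CPM in the cKO libraries, against 0, 0, 0.714 and 0.398 CPM in the control libraries. Its log2 fold change was 2.84 ± 0.37 (edgeR adjusted p = 0.00124), higher in all 4 pairs. The microglia list, of which P2ry12 and Csf1r are in the table, summed to 0.630 to 1.44 CPM in cKO and 0.317 to 0.902 CPM in control libraries. Its sum was higher in cKO in each batch and P2ry12 rose, and the part of microglia in the Folr2 result was not tested. AU022754, head to head with the ligand gene Wnt7b, had a log2 fold change of 0.40 ± 0.21 (edgeR adjusted p = 0.218), and Wnt7b fell (log2 fold change -0.35 ± 0.04, edgeR adjusted p = 3.25e-04). Gm7628, head to head with the semaphorin receptor gene Plxnb1, had a log2 fold change of -0.07 ± 0.17 (edgeR adjusted p = 0.826), and Plxnb1 fell (log2 fold change -0.43 ± 0.03, edgeR adjusted p = 2.36e-05). With all batches, in none of these 4 pairs did the difference between the 2 genes pass (limma adjusted p 0.146 to 0.420). With 1 batch left out it passed for AU022754 without replicate 1 (0.00322), for Gm10602 without replicate 1 or 6 (0.0467 and 5.81e-04) and for Gm17690 without replicate 4 (7.54e-04), and for Gm7628 in no such fit.

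Of the 12 locus-named or host genes with the highest CPM, Brip1os and Snhg16 fell, Sp3os rose and 9 did not pass. Emx2os, head to head with the homeobox gene Emx2, averaged 5.27 ± 1.73 CPM in cKO and 5.19 ± 1.69 CPM in control libraries (SD, n = 4 each), a log2 fold change of 0.02 ± 0.09, while Emx2 fell (log2 fold change -0.20 ± 0.05, edgeR adjusted p = 0.0133). The difference of 0.23 ± 0.10 between Emx2os and Emx2 did not pass (limma adjusted p = 0.346). Rab10os, tail to tail with the small GTPase gene Rab10, had a log2 fold change of -0.15 ± 0.06 (edgeR adjusted p = 0.118) beside -0.12 ± 0.03 for Rab10 (edgeR adjusted p = 0.0184). Zfp335os was lower in 4 of 4 pairs at -0.28 ± 0.10 and missed the threshold (edgeR adjusted p = 0.0734). Zeb2os, inside the gene of the transcription factor Zeb2, averaged 5.59 ± 1.40 CPM in cKO and 5.84 ± 1.39 CPM in control libraries (SD, n = 4 each; log2 fold change -0.07 ± 0.09). Bcas1os1, inside the myelin protein gene Bcas1, had 1.64, 1.45, 9.27 and 4.75 CPM in the cKO libraries, against 1.35, 1.61, 9.17 and 5.19 CPM in the control libraries. Replicates 4 and 6 stood above 1 and 3 in both groups, and the pairs lay close, with a log2 fold change of -0.01 ± 0.11. Zfhx2os, Kcnmb4os2, B9d1os and Rab26os had log2 fold changes of -0.04 ± 0.10, 0.01 ± 0.10, -0.004 ± 0.10 and 0.16 ± 0.12. Of the most abundant members, 6330403L08Rik, head to head with the progenitor growth factor gene Pdgfa, averaged 19.4 ± 4.90 CPM in cKO and 19.7 ± 3.09 CPM in control libraries, and Gm50240 averaged 19.2 ± 2.83 CPM in cKO and 19.5 ± 3.55 CPM in control libraries (SD, n = 4 each), with log2 fold changes of -0.03 ± 0.06 and -0.02 ± 0.05.

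Gm43118, inside the phosphatidylinositol transfer protein gene Pitpnb, had the most negative log2 fold change of all members, -1.496 ± 0.72 (SE), without passing (edgeR adjusted p = 0.233). It had 1.29, 0.737, 0.929 and 0.0323 CPM in the cKO libraries, against 0.961, 6.17, 1.93 and 0.625 CPM in the control libraries. The groups overlapped, 1 control library of replicate 3 stood far above the rest, and 3 of 4 pairs were lower in cKO. All of its exon bases face exons of Pitpnb.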

How the data were processed

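Polyadenylated RNA of 4 cKO and 4 control cultures was sequenced. The submitters' processing notes name STAR, cutadapt, Partek and DESeq2 and the mm10 build. Their versions, the annotation and any use of strand are not given in these sources. The authors deposited 1 table of estimated counts per gene, not normalized, 52% of whose values are not whole, with biotype and coordinates. Members and lists were chosen with earlier results of these data known.

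Counts were rounded. edgeR 4.0.16 (R 4.3.3) kept 18102 genes (filterByExpr by group, minimum count 10), used TMM factors and fitted group with the replicate number as a block (glmQLFit, robust; glmQLFTest, 2-sided, Benjamini-Hochberg over all genes tested, threshold 0.05). CPM of single libraries and of groups are on TMM-adjusted library sizes. The level rule, the median levels, the level bands, the ranks by CPM and the CPM per kb use column sums without TMM factors. The labels' batch names pair the libraries. Over all genes tested, deviations from group means correlated at 0.75 to 0.79 for libraries with the same number and at most 0.39 otherwise. Over the members alone they correlated at 0.78 to 0.83 for the same number and up to 0.62 otherwise. No 2 libraries of a group were duplicates (chi-square per degree of freedom at least 49.3). Antisense minus partner was tested with limma 3.58.1 (trend, robust, block) on log2 CPM with a prior count of 2, computed from the deposited counts, over 604 antisense genes. Partners are the genes of the opposite strand sharing most bases, and at least 1. Exons came from GENCODE M21 (coordinates identical for 215 of 228 members), promoters from RefSeq on GRCm38.p6, and shared stretches from blastn 2.17.0. Totals of 43542700 to 65374500 counts make counting error part of the spread for members near 1 CPM.

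Named were all members past the threshold that moved the same way in 4 of 4 pairs (up to 12 in each direction), the 5 highest by CPM, the 12 highest locus-named or host genes, the 5 with the largest difference from the partner among those past the limma threshold, and their partners. Members named as examples are said to be so. Settings tried were no block, RLE and upper-quartile factors, no filter, at least 1 CPM in 4 libraries, DESeq2 1.42.0, limma-voom, each batch left out, CT010467.1 (a ribosomal RNA gene) left out, a level of 0.5 or 2 CPM for members, other choices of partner and a prior count of 0.5.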

Additional observations from a re-analysis of the deposited data

Results flagged for a closer look

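In 132 groups of 4 libraries, for the named genes and their partners, 6 had 1 library set apart from the other 3 by more of the range than Dixon's 95% critical value, and chance flags about 1 in 20 such groups. E130307A14Rik had 19.6 CPM in the cKO library of replicate 1, against 26 to 27.2 CPM in the other cKO libraries. Zfhx2os had 3.08 CPM in the same library, against 4.8 to 5 CPM in the others. Gm50252, the gene opposite Gm50240, had 0.0176 CPM there and was at 0 in the other 3 cKO libraries. 6330403L08Rik had 26.8 CPM in the cKO library of replicate 4, against 16.7 to 17.2 CPM, and its control library of that batch, at 24.2 CPM, was the highest control as well. Rftn2, which fell with Gm10561, had 57.6 CPM in the cKO library of replicate 6, against 38.7 to 39.5 CPM, and its highest control was of the same batch at 93.5 CPM. B9d1os had 7.69 CPM in the control library of replicate 3, against 2.82 to 3.63 CPM, and its highest cKO library was of that batch at 6.66 CPM.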

How the results depend on the processing

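The pairing of libraries by batch carried the calls. With no replicate block, members called, higher and lower, partners called and pairs called together were all 0 (8 members at an unadjusted p under 0.05 in edgeR), and 1 member differed from its partner. With 1 batch left out, members called were 9 to 15, higher 7 to 10, lower 2 to 5, partners called 33 to 54, pairs called together 3 to 6 and members that differed from the partner 3 to 16. Replicate 3 gave the fewest member calls when left out and replicate 1 the most differences from the partner. DESeq2 with the block called 12 members, 3 of them lower. Among members of at least 2 CPM 7 rose, and with the most abundant overlapping gene as partner 10 members differed from it. Leaving out a batch leaves fewer libraries in the fit, and otherwise the cause was not tested. Another 78 summary values stayed within 1.5 times the main count or within its spread. Among the summary values only the median log2 fold change has a sign that could reverse, and it stayed slightly negative in every setting. With RLE, upper-quartile or no filter, 19 or 20 of the 20 members passed, and limma-voom called 22. Precision at 1 to 2 CPM was limited, with a median SE of 0.18 on the log2 scale.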
